A study of Mus musculus with 24 samples.

Results

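Imprinted genes are expressed mainly or only from the allele inherited from one parent. The 34 described here were the rows whose gene symbol was one of a list of 34 imprinted genes, out of 55536 genes in the deposited table, and all 34 were present. By general knowledge of the mouse, 22 of them are expressed from the paternal allele and 11 from the maternal allele, and Gnas has promoters of both kinds. The values came from bulk RNA sequencing of mouse embryonic organs at E11.5, entire lungs or entire small intestines, in 24 libraries that form 6 groups of 4. Cenpj mutants carried ShhCre with Cenpj-/lox, Ift88 mutants carried ShhCre with Ift88-/lox, and controls carried ShhCre with Cenpj+/lox, and each genotype was sampled in lung and in intestine. Where Cre acts, controls thus keep a single working Cenpj copy, and the same 4 control libraries of an organ served both mutants. Shh-driven Cre acts in the epithelium, so all other cells of a mutant organ stayed heterozygous, while those of a control organ kept both copies.

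Imprinting is set by DNA methylation laid down in the egg or the sperm, and control regions marked in this way switch clusters of neighbouring genes. Many paternally expressed genes promote growth of the embryo, as the growth factor Igf2 does, and several maternally expressed genes restrain it, as Igf2r and Grb10 do. Most are high in fetal organs and lower after birth. Long noncoding RNAs such as H19, Meg3, Airn and Kcnq1ot1 take part in these clusters. Some imprints hold only in certain cells: in the mouse Ube3a is imprinted in neurons, Ascl2 in the placenta, and Grb10 uses the paternal allele in neurons. The deposited values add both alleles together, so they show the level of a gene and not which allele was read.

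Each library held 96.12 to 120.88 M reads (median 108.43), with 21994 to 26529 genes detected. In 10 libraries, all 8 Cenpj mutants, lung control 3 and intestine control 2, ribosomal RNA genes took over 2000 reads per M reads and Rn7sk exceeded 500 normalized counts, and these are called ribosomal-rich. Genotype and this library kind therefore go almost together for Cenpj, and values with library kind as a term are given where they change a call. That fit used all 24 libraries, while the mutant tests without the term used the 12 libraries of an organ. The share of each of these differences in a changed call was not tested. By Xist and Y-linked genes, lung control 1 and intestine control 1 were male. Intestine Cenpj mutant 1 was mixed, with 98518 normalized counts of Xist and 1438 of the Y-linked gene Ddx3y. These 3 are called not female, and the other 21 were female. Nkx2-1 and Sftpc were higher in lung, and Cdx2, Hnf4a and Vil1 higher in intestine, in all 3 genotypes. The other lung epithelium markers were not: Id2 was lower in lung in all 3 genotypes, and Sox2 was lower in lung in Cenpj mutants and did not pass in Ift88 mutants or controls. The summed level of the 4 lung epithelium markers overlapped between the organs in each genotype. The targeted genes did not pass the test: Cenpj differed by -0.39 (log2) in Cenpj mutant lung and -0.44 in intestine, and Ift88 by -0.42 in Ift88 mutant lung and -0.38 in intestine, with adjusted p values of 0.339, 0.878, 0.166 and 0.155. Whether the replicates of a group are different animals is not in the labels, and p values then cover the spread among libraries alone, which may be technical.

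The members lie on 10 chromosomes, with 14 on chromosome 7, 6 on chromosome 12 and 5 on chromosome 6. RefSeq promoters (GRCm38.p6, 250 bases before to 50 after a start) were matched by symbol for 29 members, with 46 starts. They held a median of 13 CG pairs, against 7 over all 32851 promoters of the table. TGCCGC, the core that the imprint-protecting zinc finger protein Zfp57 binds when methylated, was searched on both strands and occurred in 11 of 46 starts of members, which belong to 10 of 29 genes, and in 11.6% of all promoters. A pair of Mest windows 3 bases apart hold the same matches. GGGGCCCC, a motif of the imprinted transcription factor Plagl1, reads the same on both strands and does not overlap TGCCGC. It occurred in 1.08% of all promoters and in 2 of 46 starts of members, those of Peg3 and Usp29. These are 1 place: Peg3 and Usp29 point away from each other and their windows share 263 bases, so a single GGGGCCCC counts for both. H19, Rtl1, Sgce, Peg10 and Impact are named only. The starts below belong to genes that the results turn on: Zdbf2, lower in both mutant lungs; Peg3, whose window also covers the Usp29 start; Dlk1 and Meg3, the paternal and maternal leads of one cluster; and Nnat, which separated the organs. Capitals mark TGCCGC, its reverse complement, or GGGGCCCC.
Zdbf2 upstream start (chr1:63200108-63200407, plus strand): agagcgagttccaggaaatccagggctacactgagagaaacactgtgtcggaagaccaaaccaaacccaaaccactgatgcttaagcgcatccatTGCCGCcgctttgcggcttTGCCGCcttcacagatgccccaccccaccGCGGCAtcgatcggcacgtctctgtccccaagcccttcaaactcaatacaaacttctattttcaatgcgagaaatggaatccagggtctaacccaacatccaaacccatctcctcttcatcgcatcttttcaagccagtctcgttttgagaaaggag
Zdbf2 downstream start (chr1:63273019-63273318, plus strand): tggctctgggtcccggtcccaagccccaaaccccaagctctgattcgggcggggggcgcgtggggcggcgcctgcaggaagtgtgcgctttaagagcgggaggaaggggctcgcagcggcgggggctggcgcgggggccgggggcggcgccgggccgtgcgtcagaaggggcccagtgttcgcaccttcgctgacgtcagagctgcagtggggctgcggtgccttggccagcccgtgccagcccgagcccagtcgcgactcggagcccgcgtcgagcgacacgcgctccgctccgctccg
Peg3 start (chr7:6730370-6730669, minus strand): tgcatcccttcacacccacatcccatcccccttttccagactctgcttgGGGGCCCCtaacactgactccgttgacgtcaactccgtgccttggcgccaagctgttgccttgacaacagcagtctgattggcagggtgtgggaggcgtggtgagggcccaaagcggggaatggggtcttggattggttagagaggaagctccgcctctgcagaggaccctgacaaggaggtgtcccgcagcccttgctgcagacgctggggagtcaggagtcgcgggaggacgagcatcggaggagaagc
Dlk1 start (chr12:109452573-109452872, plus strand): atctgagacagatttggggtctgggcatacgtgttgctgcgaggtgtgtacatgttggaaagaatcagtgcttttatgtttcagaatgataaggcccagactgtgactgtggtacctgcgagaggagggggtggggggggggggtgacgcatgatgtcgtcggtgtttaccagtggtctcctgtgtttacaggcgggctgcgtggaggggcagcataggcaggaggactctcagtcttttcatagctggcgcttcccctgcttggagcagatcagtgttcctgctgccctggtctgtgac
Meg3 upstream start (chr12:109540746-109541045, plus strand): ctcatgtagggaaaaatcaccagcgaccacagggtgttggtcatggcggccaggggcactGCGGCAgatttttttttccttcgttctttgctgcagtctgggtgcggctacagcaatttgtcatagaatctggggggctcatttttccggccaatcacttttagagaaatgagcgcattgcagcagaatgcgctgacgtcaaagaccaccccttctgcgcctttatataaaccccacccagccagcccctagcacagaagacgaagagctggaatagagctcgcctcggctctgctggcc
Nnat start (chr2:157559828-157560127, plus strand): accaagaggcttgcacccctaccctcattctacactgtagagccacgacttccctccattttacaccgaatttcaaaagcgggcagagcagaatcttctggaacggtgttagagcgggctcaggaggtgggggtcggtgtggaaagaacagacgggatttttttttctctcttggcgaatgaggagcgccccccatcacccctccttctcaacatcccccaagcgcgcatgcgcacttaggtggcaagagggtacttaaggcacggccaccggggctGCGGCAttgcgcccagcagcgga
The upstream Zdbf2 window holds 3 TGCCGC and the downstream one none, although the downstream one has 38 CG pairs and the upstream one 15. The Meg3 and Nnat windows hold 1 TGCCGC each, and the Dlk1 window none.

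Levels were compared between genes as mean normalized counts per kilobase of exon. H19, a maternally expressed noncoding RNA, was first in both organs, at 168426 per kilobase in control lung and 182412 in control intestine. It was followed in control lung by Mest, a paternally expressed hydrolase-like protein, and by Grb10, an adaptor that dampens insulin and IGF receptor signalling. Nnat (a small membrane protein), Plagl1, Peg3 (a zinc finger protein) and Igf2 came next. In control intestine Nnat stood second. Ascl2, a helix-loop-helix factor of trophoblast and intestinal stem cells, was last in both organs, at 27.0 to 47.2 normalized counts in control lung and 4.00 to 27.4 in control intestine. Dio3, which inactivates thyroid hormone, and Phlda2, a small protein that restrains placental growth, were the next lowest in control lung. Exon length is that of all annotated exons of a gene together, so genes with many isoforms are placed too low.

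**Figure D1:**
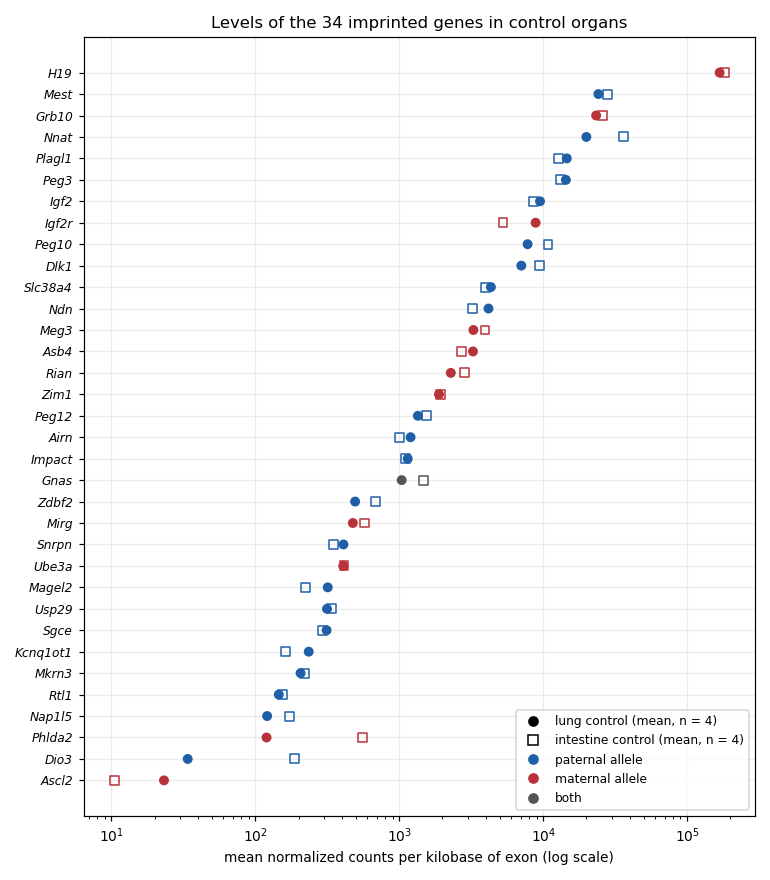
Mean normalized counts per kilobase of exon (log axis) of the 34 imprinted genes in control lung (filled circles, n = 4) and control intestine (open squares, n = 4), coloured by expressed allele. H19 leads in both organs, at 168426 and 182412 per kilobase, and the squares of Phlda2, Dio3 and Nnat lie to the right of their circles.

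Members varied between libraries of 1 group to very different degrees. The pooled within-group SD of log2 values was 0.09 for Grb10 and 0.115 for H19, and reached 1.864 for Ascl2 and 1.032 for Dio3. The median over 10593 genes with a mean of 1000 or more was 0.186. Differences of Ascl2 and Dio3 are therefore weakly measured. The small spread of Grb10 and H19 did not give smaller SEs of the limma differences. In lung these were 0.115 for Grb10 and 0.117 for H19, beside 0.106 for Mest, whose within-group SD was 0.192.

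Among paternally expressed genes, Ift88 mutant lung had lower levels of Zdbf2, Peg3 and Usp29, which were the 3 members past the test (limma, adjusted p under 0.05), and all 3 fell. Over all 31361 genes tested, 335 (1.07%) were called and 198 (0.631%) fell. At an unadjusted p under 0.05 there were 19 of 34 members, 6 higher and 13 lower, beside 3837 of 31361 genes. Because most members are highly expressed, genes with a mean of 1000 normalized counts or more were also counted, a comparison added after the values were seen. There the shares were 60.7% of 28 members and 21.4% of 10519 genes. The median size of the log2 difference over those same genes was 0.424 for the members and 0.149 for all. By the FDR of the authors' deposited table, under 0.05, the count was 11 members in this comparison, beside 996 of the 16391 genes to which that table gives an FDR (6.08%). It gives none for Ascl2.

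Zdbf2 encodes a zinc finger protein that acts on growth and feeding in newborn mice. It had 3092, 2878, 3100.3 and 3184 normalized counts in Ift88 mutant lung libraries 1 to 4, against 6517, 7443, 6372 and 4693 in control lung. The groups did not overlap, and the mutant values lay within a narrow band. Its log2 difference was -1.01 (SE 0.15, adjusted p = 0.00343), and the call held with each of the 12 lung libraries left out in turn. In Ift88 mutant intestine Zdbf2 had 7072, 6196, 6998 and 6713 normalized counts, against 9526, 6219, 11064 and 7863 in control intestine, with overlap. That difference of -0.33 (SE 0.15, adjusted p = 0.336) did not pass. In whole organs, fewer cells that express a gene and less RNA per cell cannot be told apart.

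Peg3 and Usp29 share a start region, with Peg3 coding for a zinc finger transcription factor and Usp29 for a ubiquitin protease. Peg3 had 113284, 105591, 131686 and 116390 normalized counts in Ift88 mutant lung, against 201583, 202016, 208038 and 155895 in control lung. All 4 mutant values were below all 4 control values, and lung control 4 was the lowest control. The log2 difference was -0.71 (SE 0.14, adjusted p = 0.0148). Usp29 had 3361, 3297, 3086 and 3371 normalized counts in Ift88 mutant lung and 5283, 7322, 6318 and 3874 in control lung, again without overlap and with control 4 lowest. Its difference was -0.76 (SE 0.15, adjusted p = 0.0197). Both calls were thin: Peg3 lost its call without lung Ift88 mutant 1 or 2 or lung control 2 or 3 (adjusted p of 0.0533 to 0.072). Usp29 lost its call without lung Ift88 mutant 1, 2 or 3 or lung control 2 or 3 (0.0578 to 0.0816). With library kind added, in the fit over all 24 libraries, its adjusted p was 0.0761. In Ift88 mutant intestine neither passed, with differences of -0.39 for Peg3 and -0.47 for Usp29 (adjusted p = 0.183 and 0.245).

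Peg10, a retrotransposon-derived gene needed in the placenta, was the only member past the test in Ift88 mutant intestine, where 227 of 31592 genes (0.719%) were called and 101 (0.32%) fell. It had 47588, 44107, 38879 and 52371 normalized counts in Ift88 mutant intestine, against 73383, 66785, 75332 and 73032 in control intestine. The groups were far apart, with all controls above all mutants. Peg10 fell by 0.66 on the log2 scale (SE 0.10, adjusted p = 0.00803), and kept its call with each of the 12 intestine libraries left out. With library kind as a term, in the fit over all 24 libraries, the adjusted p was 0.171. In Ift88 mutant lung Peg10 had 28599, 20670.1, 26259.7 and 39425 normalized counts, against 64916, 43589, 70288 and 29294 in control lung. Lung control 4 lay within the mutant range, and the difference of -0.81 (SE 0.23, adjusted p = 0.0899) did not pass. Without lung Ift88 mutant 4 it passed (-0.98, adjusted p = 0.0487). Its neighbour Sgce, a sarcoglycan transcribed away from Peg10, differed by 0.030 in lung and 0.32 in intestine (adjusted p = 0.978 and 0.3). In Ift88 mutant intestine 15 of 34 members had an unadjusted p under 0.05, 9 higher and 6 lower, beside 4234 of 31592 genes. Among genes with a mean of 1000 or more the shares were 55.6% of 27 members and 23.4% of 10601 genes. The authors' deposited table lists 5 members with an FDR under 0.05 there, beside 1126 of its 15712 genes with an FDR (7.17%).

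**Figure D2:**
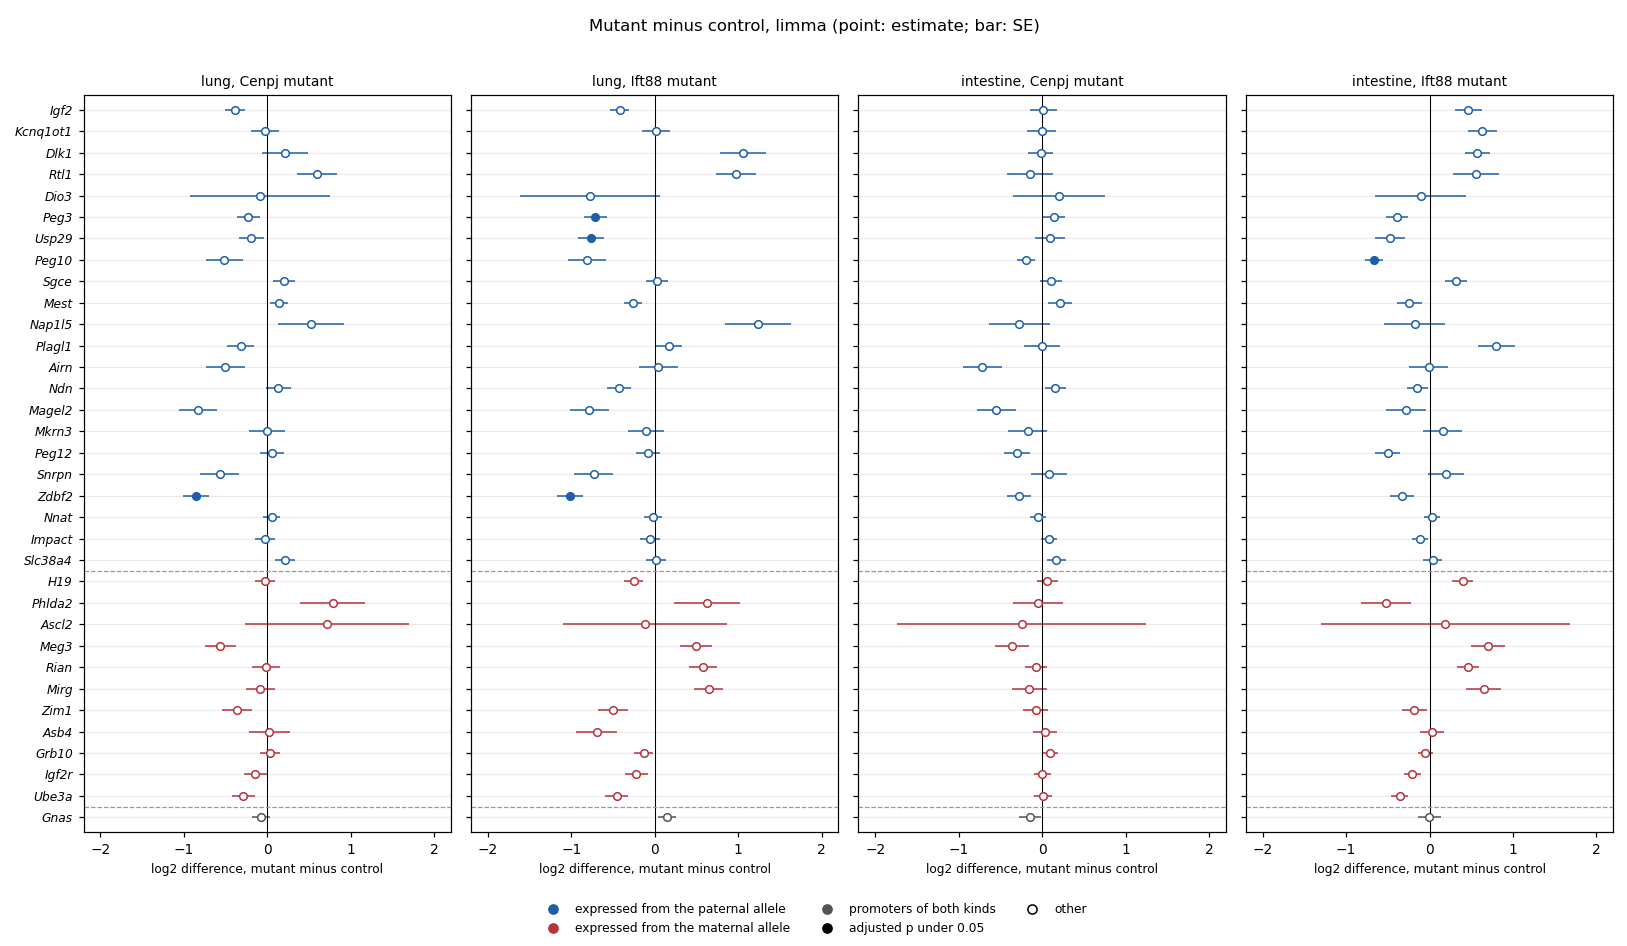
Log2 difference, mutant minus control, of each imprinted gene in 4 comparisons (points with SE bars, limma), with paternally expressed genes at the top, maternally expressed genes below and Gnas last. Filled points passed an adjusted p under 0.05: Zdbf2 in both mutant lungs, Peg3 and Usp29 in Ift88 mutant lung, and Peg10 in Ift88 mutant intestine.

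Dlk1 and Rtl1 are the paternally expressed leads of the Dlk1-Dio3 cluster on chromosome 12: Dlk1 is a membrane protein related to Notch ligands that marks progenitor cells, and Rtl1 is a retrotransposon-derived protein of fetal vessels. Dlk1 had 71641, 72788, 85012 and 74259.9 normalized counts in Ift88 mutant lung, against 42535, 27779.6, 21832 and 67536 in control lung. Every mutant value was above every control value, although lung control 4 came close. The difference was 1.06 (SE 0.28, adjusted p = 0.0713) and missed the threshold. In intestine Dlk1 had 87800, 80294, 75415 and 73665 normalized counts in Ift88 mutants and 58698, 49896, 43778 and 62323 in controls. These groups did not overlap either, and the difference of 0.57 (SE 0.15, adjusted p = 0.0761) missed the threshold too. Rtl1 differed by 0.97 (SE 0.24, adjusted p = 0.0578) in Ift88 mutant lung, without overlap, and by 0.55 (adjusted p = 0.394) in intestine. Without lung control 4, Dlk1 reached 1.36 (adjusted p = 0.00336) and Rtl1 passed as well (0.0102) in lung, and without intestine control 4 Dlk1 reached 0.65 (0.0281) in intestine. Calls were also gained when a Cenpj mutant library left the shared fit: Dlk1 (0.0294) and Rtl1 (0.0371) without Cenpj mutant lung 1, Rtl1 (0.0453) without Cenpj mutant lung 3, and Dlk1 in intestine (0.0407) without Cenpj mutant intestine 1. Rtl1 is overlapped by microRNA genes on the other strand, and the strand setting of the counting is not given in the sources used here.

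Igf2, the fetal growth factor, had differences of opposite sign in lung and intestine of Ift88 mutants. In lung it had 34873, 36636, 48208 and 44118 normalized counts in mutants, against 62149.7, 50873, 52454 and 52449 in controls, so all mutant values were lower. In intestine it had 68113, 62586, 66635 and 70170 normalized counts in mutants, against 57823, 38897, 40774 and 60224 in controls, so all mutant values were higher. Lung differed by -0.42 (SE 0.12, adjusted p = 0.0888), and intestine by 0.46 (SE 0.16, adjusted p = 0.19). Neither passed alone. The test of the difference itself gave -0.88 (SE 0.21, adjusted p = 0.128) and did not pass either. With DESeq2 on recovered reads the adjusted p was 0.0195, and in limma without intestine control 4 it was 0.0329.

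Of the other paternally expressed genes, none passed in Ift88 mutants. Plagl1, a zinc finger transcription factor that acts on other imprinted genes, had 155626, 134468, 205566 and 187751 normalized counts in Ift88 mutant intestine and 101555, 85712, 71997 and 139603 in controls. Intestine control 4 overlapped the lowest mutant, and the difference was 0.80 (SE 0.22, adjusted p = 0.0916). It passed without intestine control 4 (0.98, adjusted p = 0.0151) or Cenpj mutant intestine 2 (0.0459). Kcnq1ot1, a noncoding RNA that silences its neighbours, had 20082, 23792, 34026 and 18437 normalized counts in Ift88 mutant intestine and 16199, 14973, 15697 and 13574 in controls, without overlap, at 0.63 (adjusted p = 0.0975). In lung the differences of Plagl1 and Kcnq1ot1 were 0.17 and 0.019. Within the Snrpn domain of chromosome 7, Magel2, which regulates ubiquitin ligases, was lower in all Ift88 mutant lungs (578 to 1084 normalized counts) than in controls (1182 to 1918). Its difference was -0.78 (adjusted p = 0.115). Snrpn, a splicing protein, likewise did not overlap between Ift88 mutant lung (416 to 583 normalized counts) and control lung (598 to 1331), at -0.73 (adjusted p = 0.158). Ndn, a growth-restraining protein related to Magel2, differed by -0.43 in lung, and the ring finger gene Mkrn3 and the Wnt pathway gene Peg12 by -0.10 and -0.080 (adjusted p = 0.18, 0.894 and 0.864). Ndn passed without lung control 1 (-0.60, adjusted p = 0.0285). In Ift88 mutant intestine the differences of Magel2, Snrpn, Ndn, Mkrn3 and Peg12 were -0.28, 0.20, -0.14, 0.16 and -0.50, and Peg12 passed without intestine Ift88 mutant 4 (-0.64, adjusted p = 0.0413). Nap1l5, of a histone chaperone family, had 557, 640.3, 306 and 423 normalized counts in Ift88 mutant lung, against 337, 232, 77.1 and 246 in control lung. The lowest mutant lay below the highest control, and the difference of 1.23 (adjusted p = 0.156) did not pass. Mest, Nnat, Impact (a regulator of translation), Slc38a4 (an amino acid transporter) and Airn lay between -0.26 and 0.044 in Ift88 mutant lung and between -0.24 and 0.036 in intestine. Dio3 differed by -0.77 in lung and -0.11 in intestine, with SEs of 0.84 and 0.55.

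**Figure D3:**
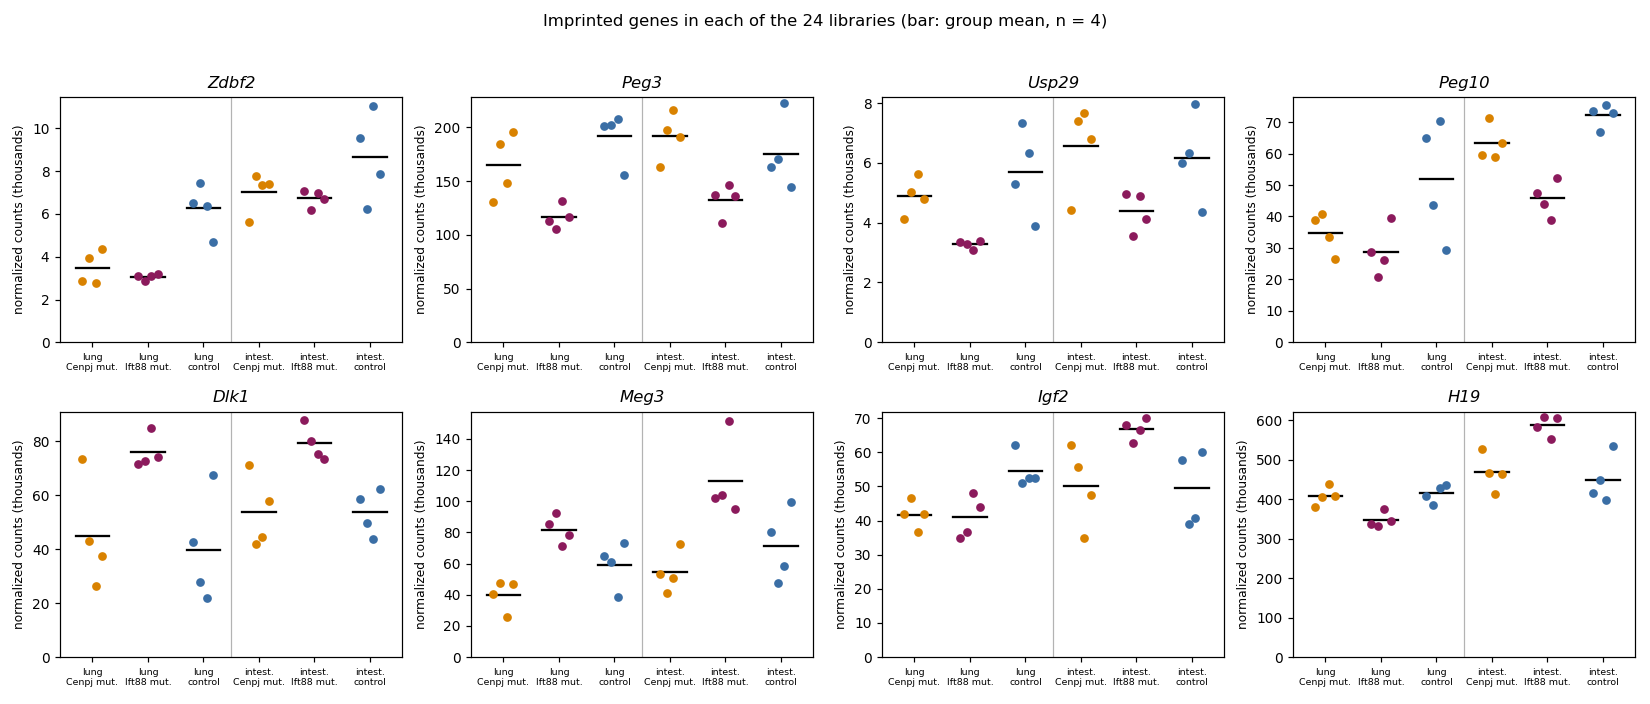
Normalized counts (in units of 1000) of 8 imprinted genes in each of the 24 libraries, with bars for group means (n = 4). Zdbf2, Peg3 and Usp29 are lower in all 4 Ift88 mutant lungs than in all 4 control lungs, and Igf2 and H19 lie below the controls in Ift88 mutant lung and above them in Ift88 mutant intestine.

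No maternally expressed gene passed the test in Ift88 mutants. Unadjusted p was under 0.05 for 7 of 11 in lung, 3 higher and 4 lower, and for 5 of 11 in intestine, 4 higher and 1 lower. Over all genes tested, 3837 of 31361 reached this in lung and 4234 of 31592 in intestine. Among genes with a mean of 1000 or more, the shares were 21.4% of 10519 genes in lung and 23.4% of 10601 in intestine. The 3 higher in lung were Meg3, Rian and Mirg, long noncoding RNAs of the Dlk1-Dio3 cluster that carry small nucleolar RNAs and microRNAs. Meg3 had 85141, 92740.1, 71008 and 78132 normalized counts in Ift88 mutant lung and 64607, 61118, 38302 and 73254 in control lung, with overlap. It had 102320.1, 104016, 151314 and 95321 in Ift88 mutant intestine and 80052, 47455, 58396 and 99796 in control intestine, also with overlap. Lung differed by 0.50 (SE 0.19, adjusted p = 0.247), and intestine by 0.70 (SE 0.20, adjusted p = 0.113). Rian differed by 0.58 (adjusted p = 0.101) in lung and 0.46 (adjusted p = 0.107) in intestine, and Mirg by 0.65 (adjusted p = 0.0813) and 0.65 (adjusted p = 0.146). Mirg had 5926, 6112, 8356 and 5512 normalized counts in Ift88 mutant intestine, against 4196, 4066, 2969 and 5421 in control intestine, without overlap. Without lung control 4, Rian (0.73, adjusted p = 0.0108) and Mirg (0.85, 0.00239) passed in lung. Without intestine control 4, Meg3 (0.88, 0.0162), Rian (0.55, 0.0319) and Mirg (0.79, 0.0464) passed in intestine.

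H19 shares enhancers and a control region with Igf2, and its differences had the same signs. It had 338111, 332469, 375169 and 345628 normalized counts in Ift88 mutant lung, against 408278, 384448, 427870.3 and 436716 in control lung, and all mutant values were lower. In intestine it had 583184, 607699, 552140.2 and 605064 in Ift88 mutants, against 415424, 447750.1, 398529 and 533231 in controls, and all mutant values were higher. Lung differed by -0.25 (SE 0.12, adjusted p = 0.387), and intestine by 0.40 (SE 0.13, adjusted p = 0.142). The lung effect minus the intestine effect was -0.65 (SE 0.14, adjusted p = 0.104), short of the threshold. It was 1.53e-04 in adjusted p with DESeq2 and 0.0173 in limma without intestine control 4. None of the 34 members passed the limma test of a difference between organs for Ift88, where 4 of 32098 genes (0.0125%) were called, and edgeR called none. DESeq2 called 2 members, Igf2 and H19, beside 194 genes. An unadjusted p under 0.05 in limma was reached by 9 of 34 members and by 2334 of 32098 genes. Among genes with a mean of 1000 or more the shares were 22.2% of 27 members and 8.56% of 10593 genes.

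Ube3a, a ubiquitin ligase, had 5212, 5985, 6721 and 6807 normalized counts in Ift88 mutant lung, against 8593, 7865, 9194 and 8086 in control lung. In intestine the values were 6144, 5891, 7799 and 6878 in Ift88 mutants and 7887, 8108, 9413 and 8722 in controls. Mutants were below controls without overlap in both organs, at -0.45 (adjusted p = 0.13) in lung and -0.36 (adjusted p = 0.118) in intestine. Zim1, a zinc finger gene beside Peg3, and Asb4, which recruits proteins to a ubiquitin ligase, differed by -0.50 (adjusted p = 0.22) and -0.69 (adjusted p = 0.21) in lung and by -0.18 and 0.033 in intestine. Without lung control 4, Asb4 passed in lung at -1.03 (adjusted p = 0.00214), as did Peg10 at -1.06 (0.0039). Phlda2 had 216, 196, 211 and 169.9 normalized counts in Ift88 mutant lung and 149, 153, 166 and 69.9 in control lung, without overlap, but lung control 4 alone was very low and the difference was 0.63 (adjusted p = 0.56). Its difference in intestine was -0.52 (adjusted p = 0.478). Grb10, Igf2r, which takes IGF2 up for breakdown, and Gnas, which encodes the G protein subunit that activates adenylate cyclase, lay between -0.22 and 0.15 in lung and between -0.21 and -0.0012 in intestine.

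Groups that did not overlap were 12 of 34 members in Ift88 mutant lung, beside 6.13% of all genes, and 7 of 34 in intestine, beside 6.67%. The direction was the same in both organs for 23 of 34 members and for 58.4% of all genes. An unadjusted p under 0.05 in both organs was reached by 11 of 34 members and by 1256 of 28923 genes (4.34%). These counts were not repeated for genes with a mean of 1000 or more, to which most members belong. There an unadjusted p under 0.05 was more common in each organ, at 21.4% in lung and 23.4% in intestine. Over all genes it was 3837 of 31361 in lung and 4234 of 31592 in intestine. Of the 11, Dlk1, Meg3, Rian and Mirg were higher in both, and Peg3, Usp29, Peg10, Ube3a and Zdbf2 were lower in both. Igf2 and H19 differed in direction. The 9 of 11 members with one direction stand beside 1122 of the 1256 genes (89.3%). The 2 organs share no library, though whether they came from the same embryos is not given. Other things moved with the Ift88 genotype. Of 8 erythroid markers, 5 fell in Ift88 mutant lung and 3 in intestine. Their summed level was 227565 to 366380 normalized counts in Ift88 mutant lung and 481791 to 1558814 in control lung, and 157912 to 223373 in Ift88 mutant intestine and 202619 to 609679 in control intestine. No erythroid marker was below 1 in all libraries of any group. Of 12 marker lists, the erythroid and neural sums were lower without overlap in Ift88 mutant lung, and the mesenchyme sum was higher without overlap in Ift88 mutant intestine. The neural sums were 2368 to 3855 normalized counts in Ift88 mutant lung and 4676 to 17235 in control lung. In intestine the neural sums overlapped, at 35720 to 51394 in Ift88 mutants and 16141 to 48070 in controls. The 4 mesenchyme markers, Col1a1, Col3a1, Pdgfra and Twist1, summed to 351895 to 431709 in Ift88 mutant intestine and 172268 to 333269 in control intestine. In lung the mesenchyme sums overlapped, at 331529 to 460600 in Ift88 mutants and 237236 to 464746 in controls. Twist1 alone among these 4 passed the test, lower in Ift88 mutant lung. Of the other markers outside the erythroid list, Sftpc and Pecam1 were higher in Ift88 mutant lung and Stmn2 was higher in Ift88 mutant intestine, past the test. The part of these shifts in the results above was not tested. Lung control 4, whose removal adds 6 members to the 3 called in lung, held 953039 in erythroid markers, inside the control range, and 464746 in mesenchyme markers, the highest control. Intestine control 4, whose removal adds 5 to the 1 called in intestine, held 202619 in erythroid markers, the lowest control, and 333269 in mesenchyme markers, the highest control. It also held 48070 in neural markers, inside the range of the Ift88 mutant intestines, while the other control intestines held 16141 to 25471.

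In Cenpj mutant lung, Zdbf2 was the only member past the test, and it fell, beside 161 of 31361 genes called (0.513%), of which 136 (0.434%) fell. Zdbf2 had 2849, 3952, 2764 and 4350.2 normalized counts in Cenpj mutant lung, against 6517, 7443, 6372 and 4693 in control lung. The groups did not overlap, and the log2 difference was -0.86 (SE 0.15, adjusted p = 0.0127). The Ift88 comparison used the same control libraries, so the 2 falls of Zdbf2 are not independent. All Cenpj mutant lungs were ribosomal-rich, and with library kind as a term the difference was -0.66 (adjusted p = 0.225). Lung control 3, the only ribosomal-rich control lung, had 6372 normalized counts of Zdbf2, above every Cenpj mutant. Without lung control 2 the adjusted p was 0.0675. With library kind as a term, Zdbf2 in Ift88 mutant lung, where no library was ribosomal-rich, kept its call at -1.08 (adjusted p = 0.00123).

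The other paternally expressed genes stayed short of the threshold in Cenpj mutant lung. Igf2 had 41818, 46469.5, 36647 and 41803 normalized counts in Cenpj mutant lung, against 62149.7, 50873, 52454 and 52449 in control lung, without overlap, at -0.39 (adjusted p = 0.154). Magel2 differed by -0.83 (adjusted p = 0.118), Airn by -0.50 (adjusted p = 0.415), Peg10 by -0.51 (adjusted p = 0.381), Snrpn by -0.57 (adjusted p = 0.341) and Rtl1 by 0.60 (adjusted p = 0.332). Among maternally expressed genes, Meg3 had 40559.7, 47357, 25958 and 46829 normalized counts in Cenpj mutant lung and 64607, 61118, 38302 and 73254 in control lung, with overlap, at -0.56 (adjusted p = 0.215). The value for Meg3 is below 0 in Cenpj mutants and above 0 in Ift88 mutants, and both were set against the same controls. Without lung control 3, Meg3 reached -0.76 (adjusted p = 0.0484). Phlda2 had 242, 179, 283 and 192 normalized counts in Cenpj mutant lung, above all control values, at 0.78 (adjusted p = 0.458). H19, Rian, Mirg, Asb4 and Grb10 lay between -0.083 and 0.034. An unadjusted p under 0.05 was reached by 8 of 34 members, beside 3606 of 31361 genes. Among genes with a mean of 1000 or more the shares were 25% of 28 members and 20.8% of 10519 genes. Groups without overlap were 3 of 34 members, beside 5.42% of all genes.

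In Cenpj mutant intestine no member passed, and limma called none of 31592 genes (0%), nor did edgeR call any. DESeq2 called 54 genes and no member. An unadjusted limma p under 0.05 was reached by 2 members, Airn and Magel2, and by 1616 genes. Airn, the noncoding RNA that silences Igf2r, had 2113, 1339, 2485 and 3104 normalized counts in Cenpj mutant intestine, against 4194, 2411, 3946 and 4012 in control intestine, with overlap. Its difference was -0.72 (adjusted p = 0.83), while Igf2r itself differed by 0.0011 (adjusted p = 1). The reads of Airn and Igf2r cannot be told apart where they overlap, as the strand setting is not given in the sources used here. Magel2 differed by -0.55 (adjusted p = 0.906). Grb10 was higher in all Cenpj mutants (245869 to 258872 normalized counts) than in controls (230459 to 242942), but only by 0.094 (adjusted p = 0.906). Peg12 was lower in all Cenpj mutants, at -0.30 (adjusted p = 0.906). These 2 members without overlap stand beside 2.22% of all genes. For Cenpj the direction was the same in both organs for 17 of 34 members and 55.7% of all genes. The difference between organs was called for no gene (0%) by limma and edgeR and for 44 genes by DESeq2, none of them a member. Airn and Magel2, both lower in both organs, were the 2 members with an unadjusted p under 0.05 in lung and in intestine, beside 487 of 28923 genes (1.68%). For the difference between organs, at an unadjusted p under 0.05 in limma there were 1528 genes and 1 member, Zdbf2, at -0.58 (adjusted p = 0.932).

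Within groups, Dlk1, Rtl1, Meg3, Rian and Mirg of the Dlk1-Dio3 cluster were all on one side of their group means in 10 of 24 libraries, a count made after the values were seen. In 7 libraries 1 of the 5 genes lay apart, and in the other 7 the genes were split 3 to 2. Dlk1 and Meg3 lay on opposite sides in lung Ift88 mutants 1, 2 and 3, lung Cenpj mutants 2 and 4 and lung control 2. In intestine they did so in Ift88 mutants 1, 2 and 3 and Cenpj mutant 1. Lung control 4 was the highest control lung for 5 of the 6 cluster members, and lung control 3 the lowest for 4. Intestine control 3 was the lowest control intestine for 4. Cenpj mutant lung 3 was the lowest of its group for 5, and so were Cenpj mutant intestine 2 and Ift88 mutant intestine 4. Cenpj mutant intestine 4 was the highest of its group for 5, and Ift88 mutant intestine 3 and intestine control 4 for 4 each. Among these libraries, Dio3 lay on the other side of its group mean in lung control 3 and 4, intestine control 3, Cenpj mutant lung 3 and Cenpj mutant intestine 2. It did so in Ift88 mutant intestine 3 and 4 as well. All genes of a library share its size factor.

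**Figure D4:**
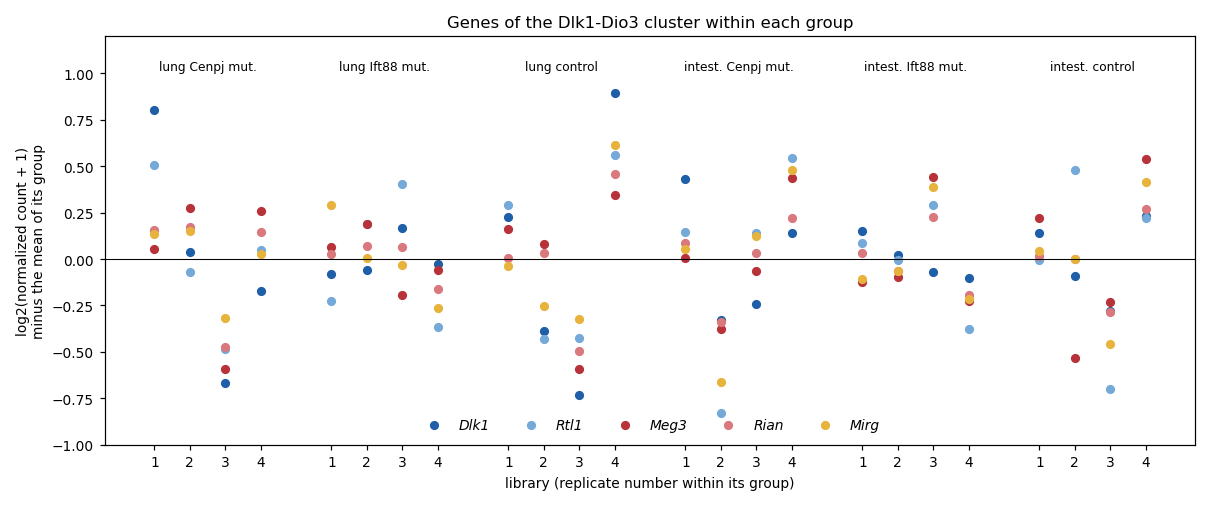
Log2(normalized count + 1) of 5 genes of the Dlk1-Dio3 cluster minus the mean of the group, for each of the 24 libraries. All 5 points of a library lie on one side of 0 in 10 of 24 libraries, as in lung control 4 (all above) and lung control 3 (all below). In 7 libraries 1 point lies apart, and in 7 the points are split 3 to 2.

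Between the organs, 3 members passed in every genotype: Igf2r was higher in lung, and Nnat and Phlda2 were lower. In Cenpj mutants 7 of 34 members passed, 1 higher and 6 lower in lung, beside 2089 of 32098 genes (6.51%), 2.53% higher and 3.98% lower. In Ift88 mutants 9 passed, 1 higher and 8 lower, beside 2718 genes (8.47%), 3.1% higher and 5.37% lower. In controls 4 passed, 1 higher and 3 lower, beside 1711 genes (5.33%), 2.6% higher and 2.73% lower. Groups without overlap were 9 of 34 members in Cenpj mutants, 14 in Ift88 mutants and 5 in controls, beside 10.8%, 14.1% and 7.18% of all genes. Among genes with a mean of 1000 or more the shares called were 18.5%, 22.2% and 11.1% of 27 members, beside 12%, 14.1% and 9.19% of 10593 genes.

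Nnat, a paternally expressed membrane protein of developing neural and endocrine cells, had 33948 to 42448 normalized counts in Cenpj mutant lung and 60645 to 66663 in Cenpj mutant intestine. In Ift88 mutants it had 31426 to 41205 in lung and 58937 to 72431 in intestine. Controls had 33823, 40443, 37298 and 34575 in lung, against 66509.8, 70006, 57804 and 69443 in intestine. The organs were apart in every genotype, at -0.75 (SE 0.10, adjusted p = 3.78e-06) in Cenpj mutants, -0.90 (SE 0.10, adjusted p = 1.12e-07) in Ift88 mutants and -0.85 (SE 0.10, adjusted p = 4.36e-07) in controls. Nnat lies within Blcap on the other strand. The 6 neural markers summed to 1515 to 10644 normalized counts in Cenpj mutant lung and 19274 to 34678 in Cenpj mutant intestine. In Ift88 mutants the sums were 2368 to 3855 in lung and 35720 to 51394 in intestine, and in controls 4676 to 17235 in lung and 16141 to 48070 in intestine. The sums were lower in lung without overlap in both mutants and overlapped in controls, and their part in the organ difference of Nnat was not tested.

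Of the other paternally expressed genes, Zdbf2 was lower in lung in both mutants, at -1.03 (SE 0.16, adjusted p = 6.35e-05) for Cenpj and -1.14 (SE 0.16, adjusted p = 9.87e-06) for Ift88, and did not pass in controls, at -0.46 (SE 0.16, adjusted p = 0.113). Peg10 was lower in lung in both mutants, at -0.88 (adjusted p = 0.00424) and -0.70 (adjusted p = 0.0207), and stood at -0.55 (adjusted p = 0.119) in controls. In Ift88 mutants the Peg10 call was lost without lung Ift88 mutant 2 or 3 or intestine Ift88 mutant 1 or 4 (adjusted p of 0.0549 to 0.113). Dio3 had 11.8 to 112 normalized counts in Ift88 mutant lung, against 137 to 372 in Ift88 mutant intestine, and 34.3 to 151 in Cenpj mutant lung, against 237 to 386 in Cenpj mutant intestine. It was lower in lung in both mutants, at -2.75 (adjusted p = 0.00866) for Ift88 and -2.37 (adjusted p = 0.0335) for Cenpj. In controls, where it ranged over 40.4 to 111 in lung and 66.3 to 670.2 in intestine, the difference of -2.09 (adjusted p = 0.0839) did not pass. The Dio3 call in Cenpj mutants was lost without Cenpj mutant lung 1, 2 or 4 or any of the 4 Cenpj mutant intestines (adjusted p of 0.0507 to 0.103), and in Ift88 mutants without lung Ift88 mutant 2 (0.0525). Igf2, at -0.72 (adjusted p = 0.00145), and Snrpn, at -0.72 (adjusted p = 0.0427), were lower in lung among Ift88 mutants. For Igf2 the values were -0.24 in Cenpj mutants and 0.16 in controls, and the difference between the Ift88 and control contrasts is the test given above. Snrpn stood at -0.44 in Cenpj mutants and 0.21 in controls, and its organ difference in Ift88 mutants less that in controls was -0.93 (adjusted p = 0.383). The Snrpn call was lost when any one of 7 of the 8 Ift88 mutant libraries was left out (adjusted p of 0.061 to 0.147), all except lung Ift88 mutant 4.

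Among maternally expressed genes, Igf2r had 59809 to 85370.5 normalized counts in Cenpj mutant lung and 44411 to 51581 in Cenpj mutant intestine, and 59786 to 85263 in Ift88 mutant lung and 38619.7 to 47771 in Ift88 mutant intestine. Control lung had 94852, 78279, 89253 and 67972, against 57004, 46224, 48967 and 43853 in control intestine. All lung values were above all intestine values in each genotype, at 0.61 (SE 0.12, adjusted p = 0.00156) in Cenpj mutants, 0.74 (SE 0.12, adjusted p = 1.06e-04) in Ift88 mutants and 0.75 (SE 0.12, adjusted p = 1.35e-04) in controls. Phlda2 had 179 to 283 normalized counts in Cenpj mutant lung and 442 to 919.6 in Cenpj mutant intestine, and 169.9 to 216 in Ift88 mutant lung and 222 to 572 in Ift88 mutant intestine. Control lung had 149, 153, 166 and 69.9, against 614, 661, 667 and 537 in control intestine. It was lower in lung at -1.43 (SE 0.32, adjusted p = 0.00443) in Cenpj mutants, -1.11 (SE 0.32, adjusted p = 0.0259) in Ift88 mutants and -2.27 (SE 0.32, adjusted p = 1.67e-05) in controls. In Ift88 mutants the Phlda2 call was lost without lung Ift88 mutant 2 or 4 or intestine Ift88 mutant 1, 2 or 3 (adjusted p of 0.0564 to 0.102). H19 was lower in lung in Ift88 mutants at -0.76 (adjusted p = 3.98e-06), while it stood at -0.20 (adjusted p = 0.326) in Cenpj mutants and -0.11 (adjusted p = 0.719) in controls. Gnas was lower in lung in Cenpj mutants at -0.42 (adjusted p = 0.0332) and controls at -0.50 (adjusted p = 0.0115), and at -0.35 (adjusted p = 0.0843) in Ift88 mutants. Without the 3 libraries that are not female, Gnas missed the threshold in Cenpj mutants (0.0783) and controls (0.0802). Leaving out intestine control 1 alone gave 0.0767 in controls. In Cenpj mutants the Gnas call was lost without Cenpj mutant lung 2, 3 or 4 or Cenpj mutant intestine 1 or 2 (0.0525 to 0.14).

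**Figure D5:**
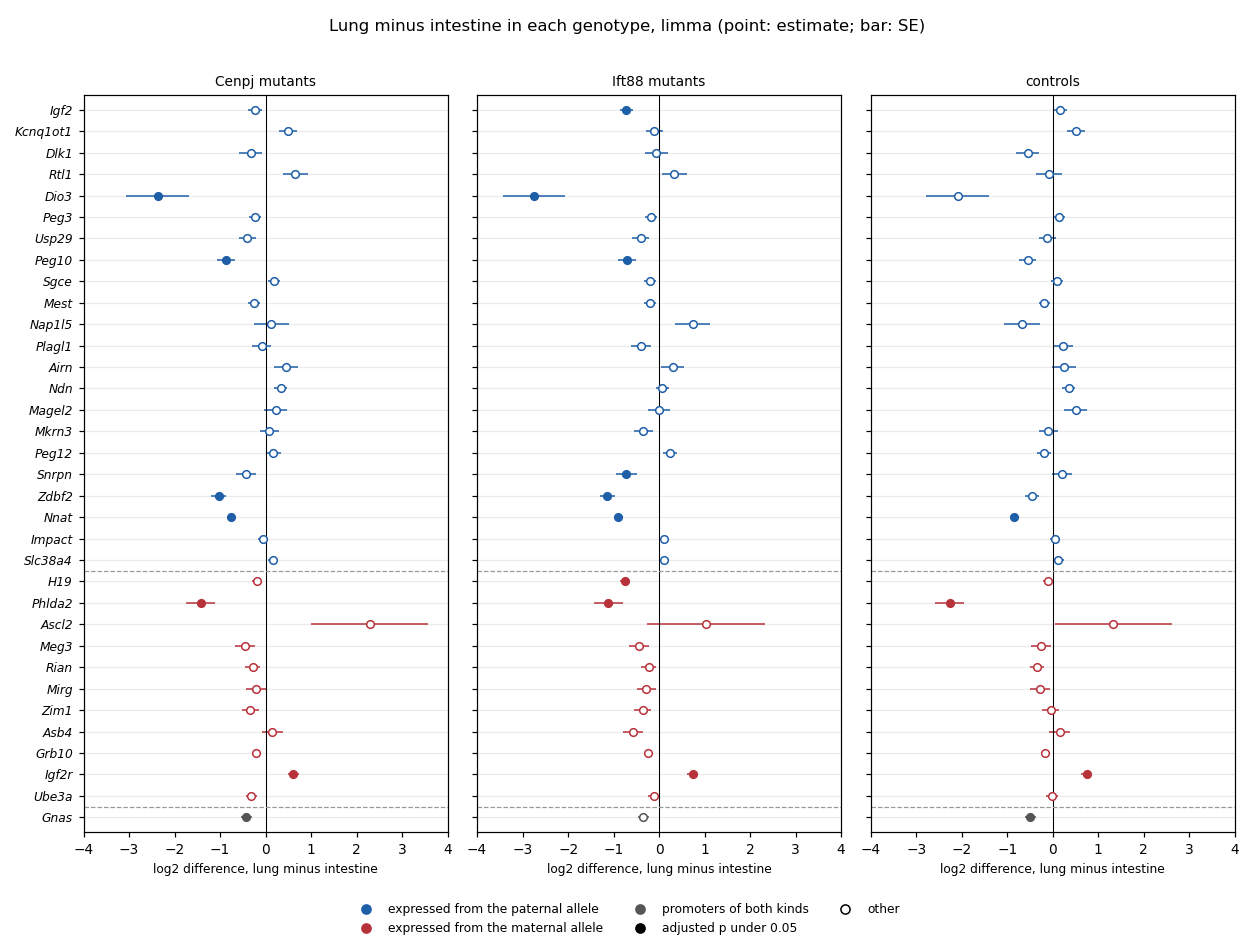
Log2 difference, lung minus intestine, of each imprinted gene in Cenpj mutants, Ift88 mutants and controls (points with SE bars, limma), paternally expressed genes at the top. Filled points passed an adjusted p under 0.05: Nnat, Phlda2 and Igf2r are filled in all 3 panels, and Igf2r lies to the right of 0.

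Other genes of the pathway were taken from 4 lists. Of 23 further maternally expressed genes, all tested, 1 fell and none rose in Ift88 mutant lung: Cobl, an actin nucleator, at -0.76 (SE 0.15, adjusted p = 0.0157). In Ift88 mutant intestine 1 rose: Dcn, the matrix proteoglycan decorin, at 0.80 (SE 0.18, adjusted p = 0.0458). Over all genes tested, 1.07% were called in Ift88 mutant lung and 0.719% in Ift88 mutant intestine. The growth inhibitor Cdkn1c, which blocks cyclin-dependent kinases, differed by -0.10 (adjusted p = 0.766) in Ift88 mutant lung and 0.48 (adjusted p = 0.0636) in intestine, and the histone chaperone Nap1l4 by -0.037 and -0.21. Of 11 further paternally expressed genes, 8 were tested in lung and 9 in intestine and none passed in a mutant. Inpp5f, a lipid phosphatase, and the noncoding RNA Peg13 had differences of -0.15 and -0.27 in Ift88 mutant lung. In Ift88 mutant intestine they were 0.065 and 0.053.

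Of 20 genes of imprint maintenance and DNA methylation, 19 were tested in lung and 20 in intestine, and none passed in a mutant. Trim28, the corepressor that Zfp57 recruits, differed by -0.16 in Ift88 mutant lung and -0.31 in intestine. Dnmt1, which copies methylation at replication, differed by -0.087 and -0.33 (adjusted p = 0.791 and 0.188). The list's median was -0.18 in Ift88 mutant lung and -0.30 in intestine, beside 0 and 0.057 over all genes tested, low-count genes included. Of 19 genes of IGF signalling, 2 fell in Ift88 mutant lung and 1 in intestine, where 0.631% and 0.32% of all genes fell. Igf2bp1, which binds Igf2 messenger RNA, averaged 26282 ± 4477 normalized counts in Ift88 mutant lung and 45004 ± 9974 in control lung (SD, n = 4 each). It fell in lung, at -0.76 (SE 0.14, adjusted p = 0.0137), and it fell likewise in intestine, at -0.72 (SE 0.16, adjusted p = 0.0458). Igfbp3, which binds IGFs outside cells, fell in lung at -0.68 (SE 0.13, adjusted p = 0.0177). In Cenpj mutants none of the 4 lists had a gene past the limma test in lung or intestine. At an unadjusted p under 0.05 the further maternally expressed genes, further paternally expressed genes, imprint maintenance genes and IGF genes had 3, 1, 3 and 4 genes in Cenpj mutant lung, beside 3606 of 31361 genes, and 2, 0, 1 and 2 in Cenpj mutant intestine, beside 1616 of 31592. In Ift88 mutants the 4 lists had 7, 1, 4 and 11 in lung, beside 3837 genes, and 8, 0, 7 and 7 in intestine, beside 4234. The most abundant genes of the lists, Igfbp5, Igfbp4, Trim28, Dnmt1, Cdkn1c, Nap1l4, Inpp5f and Peg13, lay between -0.066 and 0.12 in Cenpj mutant lung. In Cenpj mutant intestine they lay between -0.12 and 0.52, the highest being Igfbp5 (adjusted p = 0.83).

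Between organs the 19 IGF genes had 1 higher and 3 lower in lung in Cenpj mutants, beside 6.51% of all genes called. They had 4 and 3 in Ift88 mutants, beside 8.47%, and 4 and 2 in controls, beside 5.33%. The ligand Igf1 was lower in lung at -1.72 (adjusted p = 7.69e-07) in Cenpj mutants, -1.25 (adjusted p = 5.39e-05) in Ift88 mutants and -1.46 (adjusted p = 8.19e-06) in controls. Igfbp3 was lower at -1.55, -2.06 and -1.57, in the same order of genotypes, and Igfbp5 was higher at 0.75, 0.82 and 1.19, all past the test. Pappa and Pappa2, proteases that cut IGF-binding proteins, were higher in lung in Ift88 mutants at 2.41 and 4.74, and in controls at 1.05 and 5.72. The control difference of Pappa2 is weakly measured (SE 1.15). Its normalized counts averaged 2627 (SD 2732) in control lung and 135 (SD 185) in control intestine. Irs1, an adaptor of the insulin and IGF receptors, was higher at 0.65 in Ift88 mutants and 0.77 in controls. Igfbp2 was lower at -0.97 in Ift88 mutants, and Igf2bp3 at -0.44 in Cenpj mutants. Of the further maternally expressed genes, Dcn was lower in lung in Cenpj mutants at -1.34 (adjusted p = 0.00567) and controls at -1.04 (adjusted p = 0.0466), and Cobl was higher in controls at 0.70 (adjusted p = 0.00612). Ppp1r9a, a cytoskeletal protein of neurons, was lower in lung in Cenpj mutants (-0.71) and Ift88 mutants (-0.81), and the membrane proteins Cd81 and Tspan32 were higher in Cenpj mutants (0.49 and 1.37). Klf14 was lower in Cenpj mutant lung (-3.53) and the transporter Slc22a18 in Ift88 mutant lung (-2.77), both at low counts. Of the further paternally expressed genes, Inpp5f was lower in Ift88 mutant lung (-0.52). Uhrf1, which guides Dnmt1 to replicated DNA, was higher in Ift88 mutant lung at 0.40 (adjusted p = 0.0352), and Dnmt3l was called higher at an average of 32.2 normalized counts in lung and 0 in intestine.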

How the data were processed

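The deposited table gives signal values for 55536 genes in 24 libraries: normalized counts, which are read counts divided by a size factor per library, rounded to 1 decimal, per the file headers. The authors also deposited a linear fold (ratio), a raw p-value and an FDR for each of their comparisons, and the GC percent of each gene, which is deposited but enters no result. STAR 2.5.2b, DESeq2 1.16.1 and the GRCm38 build are named in the submitters' processing notes. No counting tool, annotation release or strand setting is given in these sources, which leaves overlapping and antisense genes uncertain (19 of 34 members overlap a gene on the other strand).

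Here, log2(value + 1) was fitted with limma 3.58.1 (trend, R 4.3.3) over genes with a mean of 1 or more, using the 12 libraries of an organ for mutants against controls and all 24 for organs and for differences between organs. Calls needed a Benjamini-Hochberg adjusted p under 0.05 over all genes tested. Fold changes are on the log2(value + 1) scale. In 20 libraries the steps of low values gave whole reads for 100% of values up to 500 (tolerance 0.051), and 4 libraries had a step too near 1 to tell. On these reads edgeR 4.0.16 (quasi-likelihood, TMM) and DESeq2 1.42.0 were run as alternatives. Depth was taken from the same reads. Other alternatives were a pseudocount of 0.1, no filter on low values, TMM rescaling and a replicate block. Library kind was added as a term in a fit over all 24 libraries. Libraries that are not female were also removed, and each library was left out in turn. The fits were tested on simulated data.

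Members and lists were chosen with earlier results of these data known, as were the thresholds for library kind and the split by sex. All 34 members are named. Of the other lists, up to 4 genes with the smallest p are named per comparison, and otherwise the 2 most abundant, and these genes are also followed into other comparisons. The promoters printed and the genes plotted by library were chosen after their values were seen. Coordinates of genes matched GENCODE vM21 for 30 of 34 members.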

Additional observations from a re-analysis of the deposited data

Results flagged for a closer look

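In 12 of 204 sets of 4 libraries, 1 set for each member and group, a single library stood apart from the other 3 by Dixon's test at the 95% level. Chance alone gives about 1 in 20 such sets. In lung, Cenpj mutant 3 was low for Rian at 28886 normalized counts, with the others at 44419 to 45326, and Cenpj mutant 1 was low for Mest at 96861. Ift88 mutant lung 2 was low for Plagl1 at 115193. Lung control 1, which is not female, was high for Igf2 at 62149.7 and low for Ndn at 10666, where the other controls had 16715 to 17221. Lung control 4 was low for Peg3 at 155895, nearest to the Ift88 mutants.

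In intestine, Cenpj mutant 2 was high for Ube3a at 9503 normalized counts. Ift88 mutant intestine 3 was high for Meg3 at 151314 and for Airn at 5226. Intestine control 1, which is not female, was high for Sgce at 3741, control 2, which is ribosomal-rich, was low for Airn at 2411, and control 3 was high for Snrpn at 1132, with the others at 616 to 659. The part of sex and library kind in these values was not tested.

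The effect of the Ift88 genotype on Igf2 and on H19 differed in sign between the organs, with all mutant values below all controls in lung and above all controls in intestine. The lung effect minus the intestine effect was -0.88 for Igf2 and -0.65 for H19 on the log2 scale. Neither passed the limma test over all genes.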

How the results depend on the processing

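With DESeq2, imprinted genes called numbered 3 in Cenpj mutant lung, 11 in Ift88 mutant lung, 7 in Ift88 mutant intestine and 2 for the Ift88 difference between organs. Over all genes it called 754, 972, 54 (Cenpj mutant intestine) and 1015 (Ift88 mutant intestine), and 44 and 194 for the Cenpj and Ift88 differences between organs. DESeq2 was given the genes of the limma fits, 31361 in lung, 31592 in intestine and 32098 for differences between organs. How many of them received an adjusted p is not given here. With library kind as a term no member was called in Cenpj mutant lung (0) or Ift88 mutant intestine (0), and 83 and 85 genes were called in Cenpj mutant lung and intestine, of which 71 and 75 were higher, against 25 of 161 and 0 of 0 without the term. Without a filter on low values, 86 genes were called in Cenpj mutant lung, 150 in Ift88 mutant lung, 69 in Ift88 mutant intestine and 2 for the Cenpj difference. Without libraries that are not female the counts were 68, 222, 1 and 150 in Cenpj and Ift88 mutant lung and Cenpj and Ift88 mutant intestine, and 2 for the Ift88 difference.

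Replicate numbers are shared by the groups, but deviations of same-numbered samples correlated, in the pair of groups nearest to pairing, at 0.152, 0.116, 0.085 and 0.203 for Cenpj mutant intestine and control intestine at a mean of 50 or more, and at 0.039, 0.051, 0.035 and 0.038 at a mean of 1 or more. There 1 of 4 and 3 of 4 samples correlated best with their own number. In no pair of groups were all over 0.1. Lung control and intestine control gave 0.162, 0.051, 0.058 and 0.153 at a mean of 50 or more. For them 3 of 4 samples correlated best with their own number, and 2 of 4 at a mean of 1 or more. A cut at 0.1 cannot exclude pairing, so whether same-numbered samples are paired is not known. With the replicate block, 2, 7 and 4 members were called in Cenpj mutant lung, Ift88 mutant lung and Ift88 mutant intestine, beside 206, 506 and 545 genes, and 20 genes for the Ift88 difference. The genes tested with the block numbered 31361 in lung, 31592 in intestine and 32098 for the difference.

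Leaving out 1 library at a time gave 0 to 2 members in Cenpj mutant lung, 1 to 9 in Ift88 mutant lung, 0 to 0 in Cenpj mutant intestine, 1 to 6 in Ift88 mutant intestine, 5 to 7, 5 to 10 and 4 to 5 between organs in Cenpj mutants, Ift88 mutants and controls, and 0 to 0 and 0 to 2 for the Cenpj and Ift88 differences. Genes called ranged over 36 to 407, 52 to 995, 0 to 37, 25 to 1027, 1652 to 2262, 2235 to 2874, 1454 to 1799, 0 to 0 and 0 to 135 in the same order. The causes were not tested. No direction of a called member was reversed under these settings. With 4 libraries a group, Ascl2, Dio3 and Phlda2 are limited by low counts.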
